A study of Homo sapiens with 2 samples.

Results

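The genes described here are 8 sterol genes of 293T cells: 7 enzymes of cholesterol synthesis, HMGCS1, IDI1, FDFT1, SQLE, CYP51A1, SC5D and DHCR7, and the sterol sensor INSIG1. They were taken by symbol as targets of the transcription factor SREBP2, by a rule that states no measured value. The genes were nevertheless chosen with earlier results of these data known. All 8 were found, among 10716 named genes with a value at 6 h and 10810 at 3 h. SC5D carried its older symbol SC5DL on the array. The study used 293T, an established line of human embryonic kidney origin grown in serum. Cells given 10 µM Y27632, which blocks ROCK1 and ROCK2, kinases of actomyosin contraction, for 6 h (Cy3 channel) were set against untreated 293T cells given as 0 h (Cy5 channel) on the first array described here. Cells given the same dose for 3 h (Cy3 channel) were set against untreated 293T cells at 0 h (Cy5 channel) on the second. No vehicle is named for the untreated cells. The title of each array also holds the word control, whose meaning the labels used here do not explain.

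With 1 array per time and no dye swap, the inhibitor cannot be told apart from dye, handling or hours in culture, and no p-value is given. Each value is a deposited log ratio, read as log2, and the sources used here do not give its numerator. A positive value is higher in Y27632 cells if the ratio is treated over untreated, and lower if it is the reverse. Signs are therefore those of the file, and fold sizes carry no direction. Every one of the 8 genes had 1 probe. The error available for such a value is the SD among probes of one gene, 0.33 at 6 h, 0.31 at 3 h and 0.30 for the difference of the times, from 572 genes with several probes. It leaves out the spread between cultures. The SD across all named genes was of like size, 0.36 at 6 h, 0.36 at 3 h and 0.29 for the difference. A value beyond 1 probe SD therefore does not by itself set a gene apart. Ratios give no expression level, so the identity of the cells could not be checked against markers.

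Cholesterol is built from acetyl units through mevalonate, the isoprenoid units and squalene, and then through a chain of sterols. When membrane sterol is low, the escort SCAP carries SREBP2 out of the endoplasmic reticulum to be cleaved, and the freed factor switches on nearly all enzymes of the route. When sterol is high, INSIG proteins hold SCAP back, and INSIG1 is itself a target of SREBP2.

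SREBP2 acts at promoters together with general factors, among them NF-Y, which binds the CCAAT box. RefSeq promoter windows of build GRCh38.p14 (250 bases before to 50 after a transcript start) were matched for 6 of the 8 genes, in 11 windows, some of which overlap. FDFT1 and SQLE had no entry. CCAAT, or ATTGG on the other strand, stood in 7 of the 11 windows and in 5 of the 6 genes (IDI1, HMGCS1, SC5D, INSIG1 and DHCR7), against 34.6% of 35116 windows and 39.7% of genes in the whole table. The GC box GGGCGG stood in 10 of 11 windows (45.0% of all windows), the E-box CACGTG in 3 (7.26%) and TATAAA in 2 (11.5%). By gene, the GC box was in 6 of 6 (48.3% of all genes), the E-box in 2 (8.77%) and TATAAA in 2 (14.0%). The whole table, with 27305 genes, has fewer windows per gene than these 6 and was not matched for base content. The overlapping SC5D windows hold the same CCAAT box. A difference of these shares from the whole table was not tested. The sterol element TCACNCCAC was in 0 of 11 (1.13% of all windows). Only this spelling was searched, and a string this rare is likely to be missing from 11 windows. The 0 therefore does not show that these genes lack a sterol element. Both strands were searched, and in these windows no match of one motif overlapped a match of another. Shown are the 3 genes with the highest log ratios at 6 h and, for contrast, INSIG1, which was below 0 at both times; for each, the window with the most CCAAT boxes is given, the first listed where windows tied. Capitals mark CCAAT or ATTGG, lying on the minus strand at chr10:1048837-1049136 (IDI1) and chr5:43313363-43313662 (HMGCS1), and on the plus strand at chr11:121292521-121292820 (SC5D) and chr7:155297628-155297927 (INSIG1).
IDI1: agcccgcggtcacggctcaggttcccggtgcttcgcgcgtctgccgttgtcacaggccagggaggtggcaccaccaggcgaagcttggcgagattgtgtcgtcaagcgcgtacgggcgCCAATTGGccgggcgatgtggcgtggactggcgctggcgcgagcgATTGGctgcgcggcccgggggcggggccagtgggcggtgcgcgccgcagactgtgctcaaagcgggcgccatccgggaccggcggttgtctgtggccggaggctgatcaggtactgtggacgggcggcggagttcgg
HMGCS1: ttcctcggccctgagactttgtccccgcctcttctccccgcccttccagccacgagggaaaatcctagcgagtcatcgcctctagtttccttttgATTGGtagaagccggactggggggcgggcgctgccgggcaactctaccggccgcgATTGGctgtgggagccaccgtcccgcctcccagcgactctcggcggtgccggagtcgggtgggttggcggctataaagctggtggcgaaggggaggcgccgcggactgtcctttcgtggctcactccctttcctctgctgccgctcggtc
SC5D: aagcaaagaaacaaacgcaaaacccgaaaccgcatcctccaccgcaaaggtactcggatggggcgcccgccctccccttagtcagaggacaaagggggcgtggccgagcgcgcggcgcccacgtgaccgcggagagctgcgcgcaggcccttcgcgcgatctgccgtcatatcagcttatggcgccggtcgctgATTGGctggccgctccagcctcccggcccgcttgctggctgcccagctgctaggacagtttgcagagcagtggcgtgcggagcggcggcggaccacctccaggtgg
INSIG1: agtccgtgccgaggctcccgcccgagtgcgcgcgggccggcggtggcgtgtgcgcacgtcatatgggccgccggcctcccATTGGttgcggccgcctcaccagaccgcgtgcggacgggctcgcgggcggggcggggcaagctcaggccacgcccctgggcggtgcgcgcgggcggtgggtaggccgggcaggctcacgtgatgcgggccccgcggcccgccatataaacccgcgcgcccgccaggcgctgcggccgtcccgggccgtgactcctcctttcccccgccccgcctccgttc
The IDI1 window held 3 boxes, whose first bases stood at −132, −129 and −87 from the transcript start. The first pair overlap as one palindrome. HMGCS1 had 2 boxes, at −155 and −100, SC5D had 1 at −56 and INSIG1 1 at −170. The box was thus present both in the genes farthest above 0 and in the gene below 0.

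At 6 h of Y27632, 7 of the 8 genes had positive log ratios and 5 lay above 0.32, a size of about 1 probe SD, against 51.5% and 18.2% of all named genes. Their median was 0.36, a size of 1.28-fold, where the median named gene had 0.02. None reached 1.5-fold, a size that 5.63% of named genes passed on the positive side. At 3 h the median was 0.195, or 0.11 with symbols as listed on the array, which leaves SC5D out, against 0.02 for all genes. At that time 6 of 8 were positive and 2 lay above 0.32, against 51.3% and 17% of named genes. These are counts within 1 array each, read beside their background, and not tests. They describe genes chosen with earlier results of these data known.

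**Figure D1:**
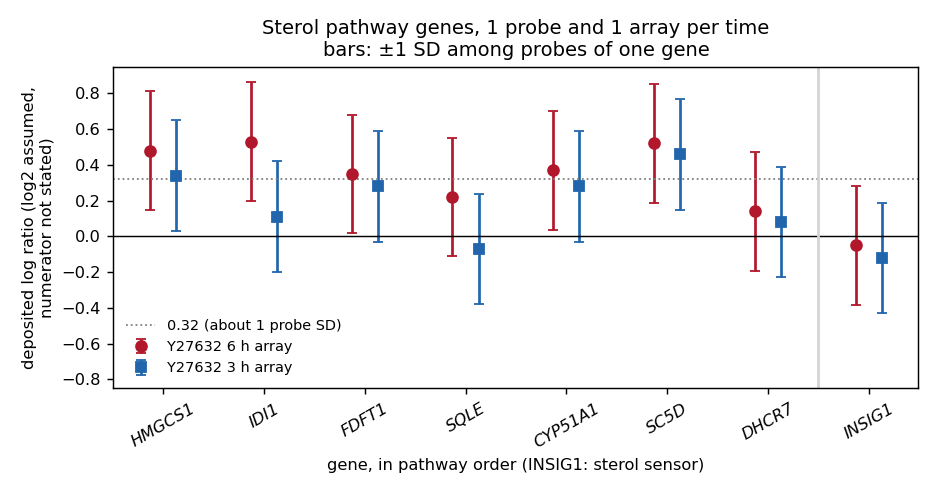
Log ratios (log2 assumed, numerator not stated) of the 8 genes in pathway order on the 6 h array (red circles) and the 3 h array (blue squares); bars are ±1 SD among probes of one gene (0.33 at 6 h and 0.31 at 3 h), and the dotted line is at 0.32. HMGCS1, IDI1, FDFT1, CYP51A1 and SC5D lie above the dotted line at 6 h, HMGCS1 and SC5D at 3 h, and the bars of every gene at the 2 times overlap.

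Among the early enzymes, HMGCS1, the cytosolic synthase that makes HMG-CoA, gave a log ratio of 0.48 (6 h) and 0.34 (3 h). These are sizes of 1.39-fold and 1.27-fold, and both exceed 1 probe SD. At 6 h, 9.22% of named genes had a value as high, and at 3 h 16.1% did.

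IDI1 interconverts isopentenyl and dimethylallyl diphosphate, the isoprenoid building blocks. Its log ratio was 0.53 at 6 h, the highest of the 8, and 0.11 at 3 h, sizes of 1.44-fold and 1.08-fold. The 6 h value was 1.60 probe SDs from 0 and the 3 h value 0.36. Its paralog and neighbour on chromosome 10, IDI2, had −0.30 and −0.11, so the probes of the 2 genes lay on opposite sides of 0 at both times.

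FDFT1, squalene synthase, commits farnesyl diphosphate to sterols. Its log ratio was 0.35 at 6 h and 0.28 at 3 h, of which only the first exceeded 1 probe SD. SQLE, squalene epoxidase and a rate-limiting step of the route, had 0.22 at 6 h and −0.07 at 3 h. Both SQLE values were smaller than 1 probe SD, and it was the one gene of the 8 whose sign differed between the arrays.

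Of the later enzymes, CYP51A1, the P450 that removes the 14-alpha methyl group of lanosterol, gave 0.37 at 6 h, against 0.28 at 3 h. SC5D, the sterol C5 desaturase, had 0.52 and 0.46, sizes of 1.43-fold and 1.38-fold. SC5D was the highest of the 8 at 3 h, where 9.43% of named genes reached its value. DHCR7, the reductase that turns 7-dehydrocholesterol into cholesterol, had 0.14 at 6 h and 0.08 at 3 h. Named genes with values at or above those of DHCR7 made up 36.0% at 6 h and 42.3% at 3 h, so it lay inside the bulk of the array.

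INSIG1, the sensor that retains SCAP, had a log ratio of −0.05 at 6 h and −0.12 at 3 h. It was the lowest of the 8 at both times, and both values were under 1 probe SD. Ordered at 6 h from high to low, the genes ran IDI1, SC5D, HMGCS1, CYP51A1, FDFT1, SQLE, DHCR7 and INSIG1. Each neighbouring pair in that order differed by less than the probe SD of 0.33. At 3 h the order was SC5D, HMGCS1, then CYP51A1 and FDFT1 with equal values, IDI1, DHCR7, SQLE and INSIG1, again with every neighbouring step under 1 probe SD. Neighbours in a ranked list lie close by construction, so these steps do not test the order.

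**Figure D2:**
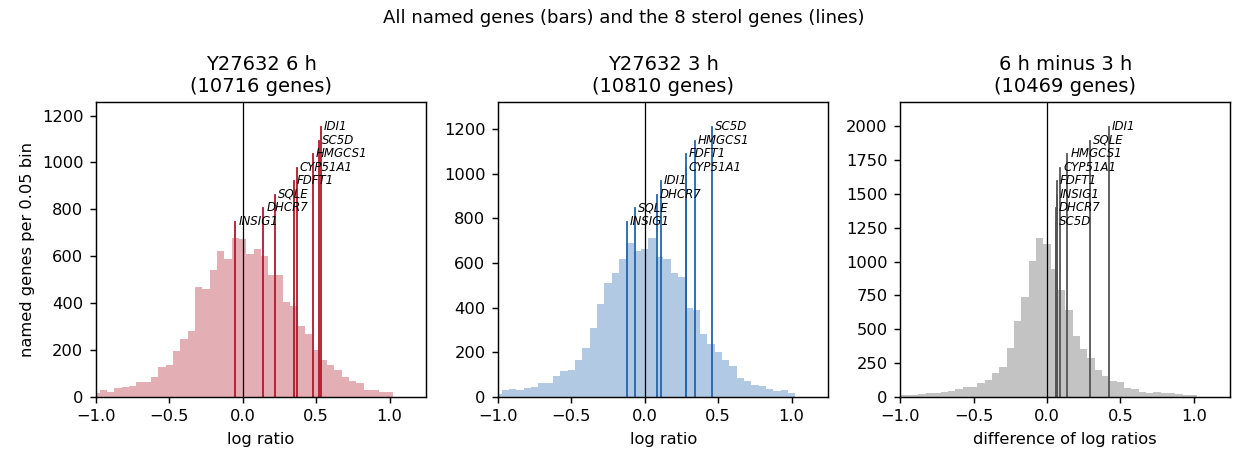
Number of named genes per 0.05 bin (bars) by log ratio at 6 h (left, 10716 genes), at 3 h (middle, 10810 genes) and by the difference 6 h minus 3 h (right, 10469 genes), with the 8 genes as labelled lines whose heights only separate the labels; values beyond 1 unit are not drawn. The genes lie between −0.05 and 0.53 at 6 h and between −0.12 and 0.46 at 3 h, inside the spread of all genes, and all 8 lines of the difference lie right of 0.

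The difference of the log ratios, 6 h minus 3 h, was positive for all 8 genes, against 46.9% of the 10469 genes with both values. Its median was 0.08, where all genes had −0.01. IDI1 had the largest difference, 0.42, which is 1.40 probe SDs and a size at or above which 6.13% of genes lay. SQLE followed with 0.29, just under 1 probe SD of 0.30. HMGCS1 had 0.14, CYP51A1 0.09, FDFT1 and INSIG1 0.07 each, and SC5D and DHCR7 0.06 each. For 6 of the 8 the shift was thus less than 0.5 probe SDs. IDI1 alone had a difference above 0.32, against 9.33% of genes. With 1 array at each time, a shift with time cannot be told apart from a shift between arrays, and the labels do not say whether the untreated RNA was shared.

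Other genes of the route lay on both sides of 0. Of 23 synthesis genes listed, 19 had values. Leaving out the 7 enzymes above, 12 others were measured, with 7 positive and 5 negative at 6 h and 8 positive and 4 negative at 3 h, beside 51.5% and 51.3% positive among all named genes. Their medians were 0.14 and 0.075, and 2 of the 12 lay above 0.32 at each time, near the 18.2% and 17% of all genes. The difference of the times was positive for 6 of these 12 and had a median of −0.005.

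In the mevalonate part, the kinase gene MVK had 0.34 at 6 h and 0.04 at 3 h, and FDPS, farnesyl diphosphate synthase, had 0.29 and 0.28. PMVK, the next kinase, had −0.06 and 0.03, and the decarboxylase gene MVD had 0.09 and 0.11. The values of PMVK and MVD lay within 1 probe SD of 0. After squalene, ERG28, a small scaffold of the enzymes that remove the C4 methyl groups, had the highest values of the route, 0.64 and 0.50. MSMO1, the C4 methyl oxidase, had 0.25 and 0.36, LBR, a nuclear envelope protein with sterol C14 reductase activity, had 0.24 and 0.13, and NSDHL had 0.19 and 0.13.

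Negative values stood beside these in the same steps. LSS, the cyclase that makes lanosterol, had −0.32 at 6 h and −0.36 at 3 h. EBP, a sterol isomerase, had −0.26 and −0.17. TM7SF2, the other C14 reductase, had a mean of −0.385 at 6 h and −0.13 at 3 h over 2 probes, which read −0.48 and −0.29 at 6 h and −0.20 and −0.06 at 3 h. Both TM7SF2 probes were on the same side of 0.

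**Figure D3:**
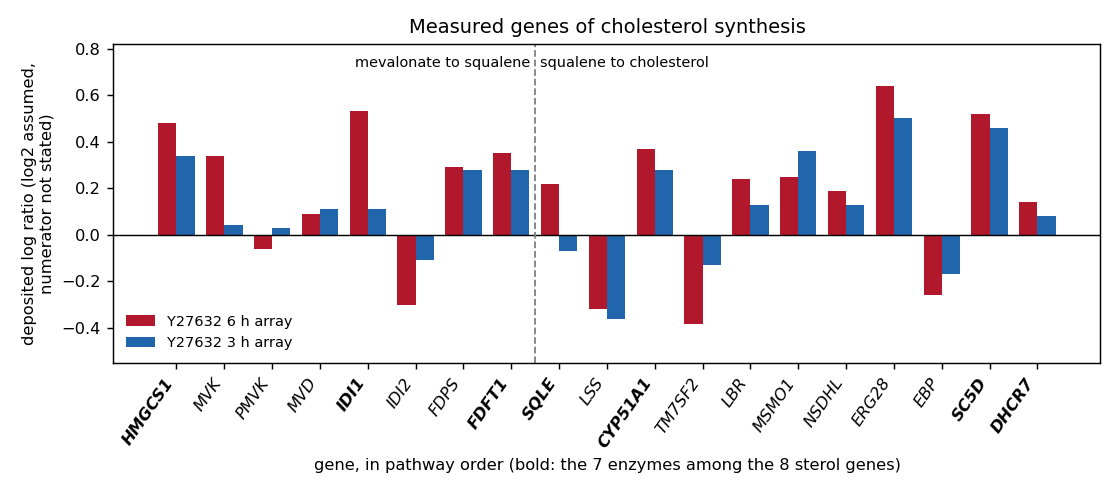
Log ratios (log2 assumed, numerator not stated) of the 19 measured genes of cholesterol synthesis on the 6 h array (red bars) and the 3 h array (blue bars), in pathway order, with a dashed line at squalene and the sterol genes of the text in bold; TM7SF2 is the mean of 2 probes. IDI2, LSS, TM7SF2 and EBP lie below 0 at both times, whereas ERG28 is the highest at both.

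Both genes of the SREBP factors had negative values. SREBF1, which encodes SREBP1, had −0.70 at 6 h and −0.60 at 3 h, sizes of 1.62-fold and 1.52-fold, both over 1 probe SD. Genes at least 1.5-fold below 0 made up 4.24% of named genes at 6 h and 4.49% at 3 h. SREBF2, which encodes SREBP2, had −0.19 and −0.26, within 1 probe SD. INSIG2 had 0.28 and 0.00, RNF139, a ubiquitin ligase of the sterol-sensing machinery, had 0.23 and 0.38, and the protease genes MBTPS1 and MBTPS2 had 6 h values of −0.05 and −0.04, against 3 h values of −0.17 and 0.24. Of 7 measured genes of this list, INSIG1 included, 2 were positive at each time, beside 51.5% and 51.3% of all named genes. The medians were −0.05 and −0.12. SCAP was not analysed here.

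SREBP1 is known mainly for fatty acid synthesis. Of 12 genes of that group, 11 were positive at 6 h and 11 at 3 h, beside 51.5% and 51.3% of named genes. The remaining gene stood at 0, ACSS2 at 6 h and SCD at 3 h. Medians were 0.245 and 0.185. ME1, malic enzyme, had 0.36 and 0.39, MID1IP1, a helper of acetyl-CoA carboxylase, had 0.35 and 0.37, and LPIN1, a phosphatidate phosphatase, had 0.28 and 0.29. The desaturase gene SCD had 0.05 and 0.00, GPAM 0.14 and 0.04, and ACSS2, acetyl-CoA synthetase, 0.00 and 0.20. Above 0.32 lay 3 of the 12 at 6 h and 2 at 3 h, beside 18.2% and 17% of all genes. The signs of these genes were thus opposite to that of SREBF1, or 0.

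Cholesterol import and transport genes were thinly covered, with 5 of 11 measured. Their medians were 0.28 at 6 h and −0.01 at 3 h. STARD4, a cytosolic sterol carrier, had 0.29 and 0.50, OSBP 0.28 and 0.08, and NPC1, which exports cholesterol from lysosomes, 0.32 and −0.09. SOAT1, which esterifies cholesterol, and the lysosomal lipase gene LIPA lay within 0.08 of 0 at both times. Among targets and receptors of the LXR pathway, which drives cholesterol export, the transporter gene ABCG1 had −1.01 and −0.48. It was the one gene of these lists at least 2-fold from 0, a size 0.728% of named genes reached on the negative side at 6 h. MYLIP, a ubiquitin ligase, had −0.16 and −0.13, APOE −0.08 and 0.08, and the receptor genes NR1H2 and NR1H3 had 6 h values of 0.24 and 0.18, against 3 h values of 0.34 and −0.17.

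Isoprenoids made before squalene also serve protein prenylation, ubiquinone and dolichol. Of 9 measured genes of those branches, 8 were positive at 6 h and 7 at 3 h, beside 51.5% and 51.3% of named genes. Medians were 0.08 and 0.20 (0.09 at 3 h with symbols as listed). GGPS1, which makes geranylgeranyl diphosphate, had 0.56 and 0.51, RABGGTB, a subunit of the transferase for RAB proteins, 0.46 and 0.39, and FNTA, a subunit of protein farnesyltransferase, 0.34 and 0.28. RABGGTA, the partner subunit of RABGGTB, had −0.17 and −0.14, PGGT1B 0.05 and 0.04, and DHDDS 0.07 and −0.24. The sterol hydroxylase genes had 3 measured of 4 at each time and medians of −0.32 and −0.34 (−0.015 at 3 h over the genes on both arrays), with CYP27A1 at −0.32 and −0.40.

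Hepatocytes are another cell type with high sterol synthesis. Their 10 markers gave medians of −0.28 over 7 measured genes at 6 h and −0.12 over 9 at 3 h. Positive were 2 and 3 of them, beside 51.5% and 51.3% of all named genes. The lowest by the mean of both times were CYP7A1, TTR and SERPINA1. CYP7A1, the rate-limiting enzyme of bile acid synthesis, had −0.98 and −0.92, TTR −0.28 and −0.61, and SERPINA1 −0.47 and −0.32. The highest were APOA1 with 0.46 and 0.09, APOB with 0.00 and 0.18, and FGB with 0.08 and −0.12. Brightness of these spots was not used here, so it is not known which of these genes were above background. The part of dim spots in any value here was not tested.

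**Figure D4:**
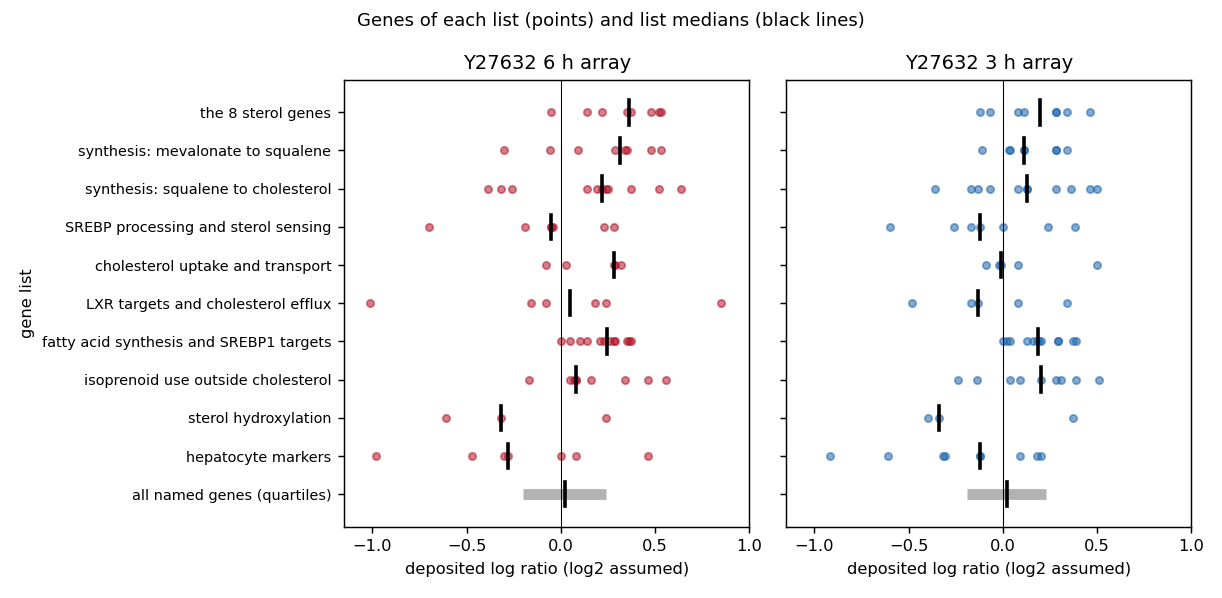
Log ratio of every measured gene (points) in the 8 sterol genes and 9 wider lists, and list medians (black lines), on the 6 h array (left) and the 3 h array (right); the grey bar spans the quartiles of all named genes. The sterol genes have the highest median at 6 h, 0.36, and at 3 h the medians of the isoprenoid list (0.20), the sterol genes (0.195) and the fatty acid list (0.185) lie close together. The synthesis and SREBP lists are drawn with the sterol genes that belong to them. Without these, the medians at 6 h and 3 h are 0.09 and 0.04 for mevalonate to squalene. For squalene to cholesterol they are 0.19 and 0.13.

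The median pair of values of the sterol genes, 0.36 at 6 h and 0.195 at 3 h, was a common one on these arrays. Within a Euclidean distance of 0.1 lay 348 other genes. The nearest were INIP, NCK1 and OPN3, each at a distance of 0.005, with 0.36 at 6 h and 0.19, 0.20 and 0.19 at 3 h. Over 2 arrays such likeness describes 2 numbers per gene and no more.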

How the data were processed

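RNA of treated (Cy3) and untreated (Cy5) 293T cells was compared on 2 two-colour arrays, and the deposited table gives 1 log ratio per probe and array, read here as log2, with 2 decimals and a median of 0. Background correction, normalization, spot filter, log base and numerator have no entry in the sources used here, and base 2 was assumed. Values were present for 20337 of 24267 probes at 6 h and 20503 at 3 h. In the platform annotation 13395 probes had 1 gene, 0 had several and 10872 were unnamed. Of these symbols 10822 were current in RefSeq (GRCh38.p14), 2446 were renamed by a synonym belonging to one gene, and 127 stayed as listed. Probes of a gene were averaged (Python 3.11.15, pandas 2.3.3). No intensities were used. Each value of the 8 genes rests on 1 probe and 1 array, which limits its precision. Sizes were counted above 0.32 on the log2 scale, from 1.5-fold and from 2-fold. The probe SD was checked on simulated data, with errors drawn independently for the 2 arrays. Averaging of probes was checked there only on a fixed value, and the other steps were not simulated. Genes named were the 8, 9 genes fixed by name, in each of 9 lists the 3 highest and 3 lowest by the mean of both times among genes on both arrays, and the 3 nearest to the median pair. MVK, FDPS, MSMO1, LBR and NSDHL were named after the values were seen. Some items are not reported here. The sterol genes and lists were chosen with earlier results of these data known. Alternatives changed probe summary, centring, scaling, symbols and the genes used.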

Additional observations from a re-analysis of the deposited data

Results flagged for a closer look

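Of the genes named by rule, 10 had opposite signs on the 2 arrays. With 1 array per time these differences, 6 h minus 3 h, were not tested. Among the 8 sterol genes this was SQLE, with a difference of 0.29, just under the probe SD of 0.30. NPC1 had a difference of 0.41, NR1H3 0.35 and DHDDS 0.31, each above that SD. FGB, a fibrinogen chain of hepatocytes, gave 0.08 (6 h) and −0.12 (3 h), which differ by 0.20. Other differences within that SD were −0.28 for MBTPS2, −0.16 for APOE, −0.09 for PMVK and 0.04 for LIPA. CYP46A1, the sterol 24-hydroxylase of neurons, gave −0.61 (6 h) and 0.37 (3 h), so that its difference was −0.98. At −3.27 probe SDs this was the largest in size of the 10.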

How the results depend on the processing

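Probe summary, centring, scaling, symbols as listed and the set of genes were each changed in turn. The medians of the 8 sterol genes stayed positive at both times and in the difference under all 6 alternatives. With symbols as listed, SC5D drops out, the 3 h median was 0.11 in place of 0.195, and 6, 5 and 7 of the 7 genes left were positive at 6 h, at 3 h and in the difference. Their count above 0.32 at 3 h was 2 as reported and 1 when centred on the median gene. It was also 1 with symbols as listed. Of the wider lists, the LXR median at 6 h turned to −0.08 with genes on both arrays, which leaves out ABCA1. At 3 h the sterol hydroxylation median was −0.34 as reported and −0.015 with genes on both arrays. With symbols as listed, the 3 h medians of isoprenoid use and of the steps from squalene to cholesterol were 0.09 and 0.005, in place of 0.20 and 0.13. If the values were natural logarithms, a reading added after the data were seen, the median sizes would be 1.43-fold at 6 h and 1.22-fold at 3 h in place of 1.28 and 1.14. No paired analysis was possible because each time has 1 array. Leaving out a replicate was not possible for the same reason. Depth has no meaning for these ratios, and signal over background was not used here.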

Other observations

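Several genes of the lists had a value on 1 array, and were chosen for mention after their values were seen. ABCA1, the LXR target that exports cholesterol to apolipoprotein A-I, had a log ratio of 0.85 at 6 h and none at 3 h, on the other side of 0 from ABCG1. CH25H, cholesterol 25-hydroxylase, had 0.24 at 6 h and none at 3 h. CYP7B1, an oxysterol hydroxylase, had −0.34 at 3 h and none at 6 h.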
